A study of Mus musculus with 4 samples.

Results

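The 10 genes described here build the cornified envelope of squamous epithelium or switch its building on. They are the crosslinking enzyme gene Tgm1, the envelope precursor genes Sbsn, Ivl, Sprr1a, Sprr1b and Krtdap, the plakin genes Evpl and Ppl, and the transcription factor genes Grhl3 and Klf4. They were picked by symbol from a table of 28440 genes, and all 10 were found in it. RNA was counted in 4 mammary gland tumours, numbered 1 to 4, which share 1 genotype, MMTV-R26Met. By this design Cre recombinase, made under the MMTV promoter mainly in mammary epithelium, turns on an added copy of the receptor gene Met placed at Rosa26. The series title presents the mice as a model of triple-negative breast cancer. No normal gland, treated tumour or other genotype was in the series, so the only comparison is of the tumours with one another. The labels name no age or strain and do not say whether each tumour came from its own mouse, so p-values measure only the spread between these 4 samples, which may be technical.

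Stratified epithelia such as skin end their differentiation by laying down a cornified envelope, a shell of protein crosslinked beneath the cell membrane. Envoplakin and periplakin, the products of Evpl and Ppl, form its scaffold, involucrin (Ivl) and the small proline-rich proteins (Sprr genes) are added to it, and transglutaminase 1 (Tgm1) joins them by covalent bonds. GRHL3 and KLF4 are transcription factors needed for the skin barrier. The normal mammary duct is a bilayer of luminal and basal cells and forms no such envelope, but squamous change can occur in mammary tumours.

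The 4 libraries held 35220504 to 42809015 counts, and no pair was alike within counting error (chi-square values of 142 to 415 per degree of freedom over genes). Met ran from 1800 to 3755 CPM, the count scaled to library size by the trimmed mean of M-values (TMM). The luminal keratin genes Krt8 and Krt18 and the epithelial gene Epcam ran from 478 to 1235 CPM, so epithelial transcripts were present in each tumour. In such bulk samples fewer cells of a kind and less RNA in each cell cannot be told apart.

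Promoter sequence from RefSeq (GRCm38.p6) matched 8 of the 10 genes, with Evpl and Ppl unmatched. The 250 bases before the start are printed for 4 of them, 5′ to 3′ in the direction of the gene. The start is that of the promoter entry, which for Tgm1, Sbsn and Ivl lies inside the annotated gene span. Distances are counted from that start and not from the edge of the span. Tgm1 and Sbsn are shown because they were the 2 genes that passed the test of spread between tumours, and Krtdap and Ivl because they were nearly without counts, Krtdap on the same stretch of chromosome 7 as Sbsn. Capitals mark matches to 5 motifs named after the factors that bind such letters.
Tgm1 (chr14:55713493-55713742, minus strand): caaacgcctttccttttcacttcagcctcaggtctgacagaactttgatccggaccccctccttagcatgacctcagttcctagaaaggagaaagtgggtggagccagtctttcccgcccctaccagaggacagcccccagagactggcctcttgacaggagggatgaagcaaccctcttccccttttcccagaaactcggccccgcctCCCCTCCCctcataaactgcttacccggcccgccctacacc
Sbsn (chr7:30751221-30751470, plus strand): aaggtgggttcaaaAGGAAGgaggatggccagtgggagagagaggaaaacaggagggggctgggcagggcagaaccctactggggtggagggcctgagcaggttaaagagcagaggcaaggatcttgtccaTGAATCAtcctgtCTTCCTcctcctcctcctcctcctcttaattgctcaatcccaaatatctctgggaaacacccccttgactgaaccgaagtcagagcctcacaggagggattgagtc
Krtdap (chr7:30787655-30787904, plus strand): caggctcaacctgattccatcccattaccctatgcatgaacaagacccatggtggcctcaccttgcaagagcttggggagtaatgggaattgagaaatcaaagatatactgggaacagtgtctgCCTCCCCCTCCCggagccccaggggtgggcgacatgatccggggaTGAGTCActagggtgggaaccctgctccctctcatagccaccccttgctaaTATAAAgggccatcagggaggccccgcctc
Ivl (chr3:92573736-92573985, minus strand): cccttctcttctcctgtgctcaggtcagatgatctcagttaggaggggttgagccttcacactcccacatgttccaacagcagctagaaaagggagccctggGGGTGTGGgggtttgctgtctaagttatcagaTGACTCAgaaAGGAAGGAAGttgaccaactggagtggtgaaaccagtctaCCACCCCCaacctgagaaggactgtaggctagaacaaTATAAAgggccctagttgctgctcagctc

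The motifs were searched on both strands. The AP-1 letters TGANTCA lay in the windows of 5 of the 8 genes (Sbsn, Ivl, Sprr1a, Sprr1b and Krtdap), against 6.75% of 32851 windows of the same length. In Sbsn the match lay 119 to 113 bases before the start and in Krtdap 81 to 75 bases before it. The TATA letters TATAAA lay in 4, Ivl, Sprr1a, Sprr1b and Krtdap, against 12.4% of all windows. Those 4 are also the genes with the fewest counts below, whereas the windows of Tgm1, Sbsn, Grhl3 and Klf4 held no TATAAA. A relation of these letters to level was not tested. The ETS letters AGGAAG lay in Sbsn and Ivl (29.5% of all windows), with 2 overlapping matches in Ivl. The KLF letters CCNCNCCC lay in Tgm1, Ivl, Krtdap, Grhl3 and Klf4 (45.9% of all windows), and some of these matches overlap one another. The GRHL letters AACCNGTT were in none of the 8 windows and in 1.79% of all. RefSeq gives Tgm1 a further start downstream, whose window held no match to any of the 5. A match is a description of letters, not of binding.

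By raw counts the members split into genes that could be tested and genes that were scarce. Raw counts also depend on gene length, so this is not a split by level. Of the 10, 6 had enough counts in all 4 tumours to be tested, and Ivl, Sprr1a, Sprr1b and Krtdap did not. Tgm1 and Sbsn varied beyond the trend for their level, while Evpl, Ppl, Grhl3 and Klf4 were not called. The test was edgeR's negative binomial fit with 1 mean for all tumours, whose misfit is set against the trend over genes, at an adjusted p of 0.05 over all genes. It called 574 of 15808 genes tested, 3.63%. The highest tumour exceeded the lowest by a median of 3.45-fold over the 6 tested members and 1.73-fold over all genes tested. As the 4 scarce members are left out of it, the first of these is not a value for the whole set. The highest tumour was number 4 for Tgm1, Evpl and Ppl, number 2 for Sbsn and Grhl3, and number 3 for Klf4. Over all genes tested, the shares highest in tumours 1 to 4 were 22.9%, 18.9%, 29.7% and 28.5%. The lowest tumour was number 3 for Tgm1 and Sbsn, number 1 for Ppl and Grhl3, number 2 for Evpl and number 4 for Klf4. The shares of all genes lowest in tumours 1 to 4 were 24.8%, 19.7%, 27.7% and 27.8%. Tgm1 and Sbsn passed with any 1 tumour left out, when 2.59%, 2.53%, 2.58% and 2.31% of all genes did (without tumours 1 to 4). Both also passed under RLE or plain library scaling (3.64% of genes each), without a filter (3.79%), with the count minimum asked of 1 library only (5.01%), at a mean of at least 5 CPM (4.14%) and at a common dispersion (4.31%). DESeq2's rule for dispersion outliers marked Sbsn alone among the members, and 0.576% of all genes.

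**Figure D1:**
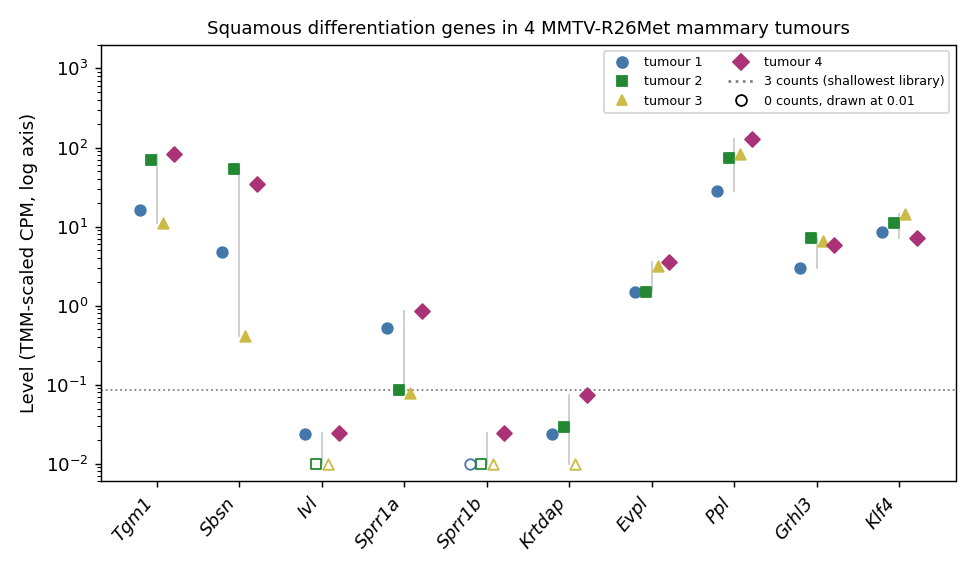
Level of each of the 10 genes in the 4 tumours, in TMM-scaled CPM on a log axis, with 1 marker per tumour and a grey line over their range. Tgm1 and Sbsn are high in tumours 2 and 4 and low in tumours 1 and 3, whereas Ivl, Sprr1b and Krtdap sit at or under the level of 3 counts, the dotted line.

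Levels of different genes are comparable only per length, here as CPM per kilobase of annotated exon. On that scale Tgm1 had 14.3 ± 11.6, Ppl 11.4 ± 5.88 and Sbsn 6.47 ± 6.97 (SD, n = 4). Klf4 followed with 3.40 ± 1.09 and Grhl3 with 2.04 ± 0.665, then Sprr1a with 0.477 ± 0.465 and Evpl with 0.380 ± 0.169 (SD, n = 4). Krtdap, Sprr1b and Ivl had means of at most 0.0463. The order of Tgm1, Ppl and Sbsn turned with the tumour. In tumour 3 Ppl led with 12.1 against 3.55 for Tgm1 and 0.115 for Sbsn, and in tumour 2 Tgm1 led with 22.1 against 14.8 for Sbsn and 10.8 for Ppl. In tumour 3 Klf4, with 4.80, also exceeded Tgm1, and Grhl3 and Evpl, with 2.33 and 0.491, exceeded Sbsn. So the places of Tgm1 and Sbsn in the order of means did not hold in each tumour, nor did the order of Sprr1a and Evpl. Klf4 exceeded Grhl3 in 4 of 4 tumours, and Grhl3 exceeded Sprr1a and Evpl in 4 of 4.

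Tgm1 encodes the membrane-bound transglutaminase that crosslinks envelope proteins (Entrez gene 21816, chromosome 14, 55700009 to 55713921, minus strand, GRCm38). It had 694, 2414, 430 and 3397 counts in tumours 1 to 4, or 16.4, 69.8, 11.2 and 83.0 CPM. Tumours 2 and 4 were high and tumours 1 and 3 low. The step between them, from tumour 1 to tumour 2, was 4.27-fold (95% exact counting interval 3.92 to 4.65). Tumour 4 exceeded tumour 2 by 1.19-fold (1.13 to 1.25) and tumour 1 exceeded tumour 3 by 1.46-fold (1.29 to 1.65). Each tumour has 1 library, so such intervals cover counting error only. From tumour 3 to tumour 4 the fold was 7.38, and Tgm1 passed the spread test (edgeR adjusted p = 0.00257) at rank 297 of 15808 by p. With 1 tumour left out the edgeR adjusted p ran from 0.0114 to 0.0444, and DESeq2 did not mark Tgm1 as a dispersion outlier. The annotated genes on either side of Tgm1 did not pass, with Tinf2 at 16.4 to 21.1 CPM and Rabggta at 23.3 to 35.0 CPM over the tumours.

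None of the 3 other transglutaminase genes listed passed. Tgm2, the widely expressed tissue transglutaminase, had 335 ± 83.2 CPM (SD, n = 4), from 262 in tumour 2 to 445 in tumour 4. Tgm5, an epidermal enzyme, had 0.778, 1.65, 0.392 and 1.54 CPM in tumours 1 to 4, which is 33, 57, 15 and 63 counts. Tgm3, known from hair follicle and epidermis, stayed between 0.434 and 0.941 CPM.

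Sbsn encodes suprabasin, a secreted protein of the suprabasal epidermis and a transglutaminase substrate (Entrez gene 282619, chromosome 7, 30732674 to 30756134, plus strand, GRCm38). It had 205, 1849, 16 and 1434 counts in tumours 1 to 4, or 4.83, 53.5, 0.418 and 35.0 CPM. Again tumours 2 and 4 were high, tumour 1 was 7.24-fold below tumour 4 (95% exact counting interval 6.25 to 8.43), and tumour 3 was a further 11.6-fold below tumour 1 (6.95 to 20.6). From tumour 3 to tumour 2 the fold was 128, with a counting interval of 78.5 to 224 that is wide because tumour 3 had 16 counts. Sbsn passed the spread test (edgeR adjusted p = 1.92e-09) and ranked 26 of 15808 by its log2 difference between highest and lowest tumour, 6.83. That difference was 3.44 without tumour 3 and with 1 tumour left out the edgeR adjusted p ran from 4.20e-10 to 0.0024. Its annotated span overlaps Gapdhs on the opposite strand, which had 0 counts in every library.

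**Figure D2:**
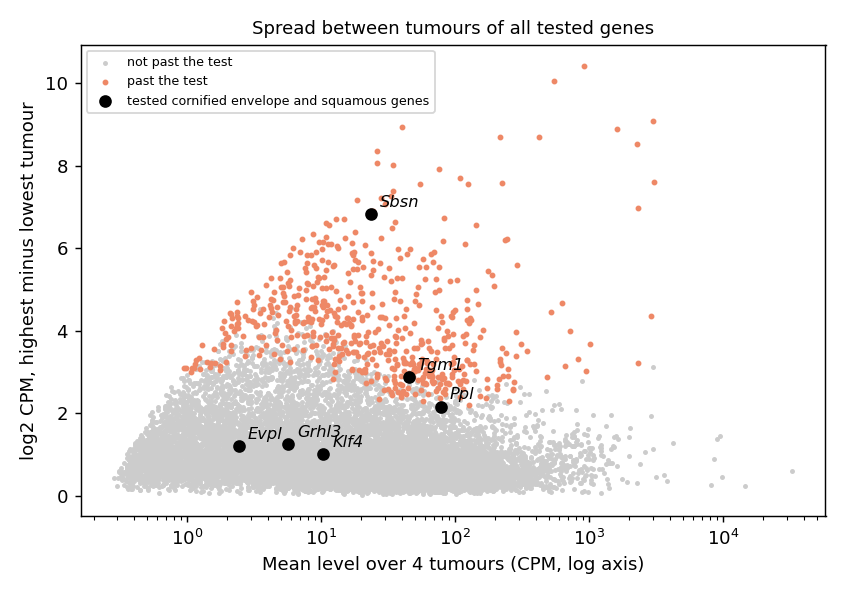
Difference in log2 CPM between the highest and the lowest tumour (vertical axis) against the mean level in CPM (log axis) for all 15808 genes tested. Orange points passed the spread test, and of the 6 labelled black points Sbsn and Tgm1 lie among them while Ppl, Evpl, Grhl3 and Klf4 lie among the grey points.

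Sbsn, Dmkn and Krtdap follow one another on the plus strand of chromosome 7 and are all active in differentiating epidermis. In the tumours they were not alike. Dmkn, which encodes the secreted protein dermokine, had 5.64, 42.6, 0.836 and 169 CPM in tumours 1 to 4. Like Sbsn it was lowest in tumour 3, followed by tumour 1, but its highest level was in tumour 4 and not in tumour 2 (edgeR adjusted p = 1.89e-17). Krtdap, which encodes keratinocyte differentiation-associated protein, had 1, 1, 0 and 3 counts, no more than the 3 counts that a count of 0 allows. The flanking gene Tmem147 had 37.9 to 59.2 CPM and did not pass, and Ffar2 had at most 0.444 CPM and was not tested. Between tumours Sbsn thus varied 128-fold and Dmkn 202-fold, while the next differentiation gene along the chromosome was not seen above 3 counts.

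**Figure D3:**
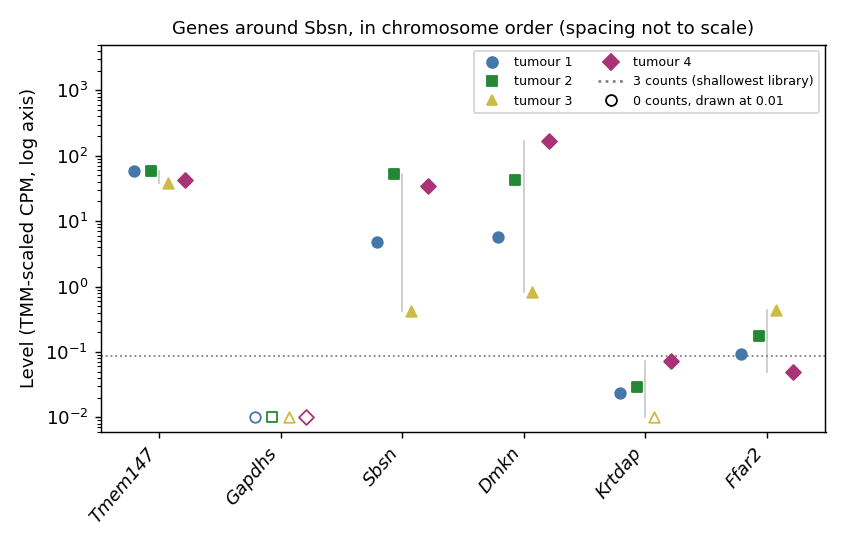
Level in TMM-scaled CPM (log axis) of the 6 protein-coding genes from Tmem147 to Ffar2 in chromosome order, 1 marker per tumour. Sbsn and Dmkn spread widely, Krtdap stays at or under the 3-count line, and open markers are 0 counts.

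The members in the epidermal differentiation complex of chromosome 3 had few counts. Ivl, which encodes the envelope precursor involucrin, had 1, 0, 0 and 1 counts in tumours 1 to 4. Sprr1b, a small proline-rich precursor, had 1 count in tumour 4 and 0 in the others. For these genes 3 counts correspond to 0.0708 to 0.0868 CPM, so no difference was detectable at this depth. Sprr1a, its close relative, had 22, 3, 3 and 35 counts, or 0.519, 0.0868, 0.0784 and 0.855 CPM. Its higher tumours were 1 and 4, and the step from tumour 2 to tumour 1 was 5.98-fold with a counting interval of 1.80 to 31.2. When the count minimum was asked of 1 library only, Sprr1a could be tested and did not pass (edgeR adjusted p = 0.929). Sprr1a and Sprr1b are paralogs, so reads that fit both may have been split or dropped in ways not given in the sources used here.

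The complex, taken from S100a1 to S100a10 (chromosome 3, 90511034 to 93564645), held 63 protein-coding genes of the table. Of its 49 genes outside the S100 family, 38 had at most 3 counts in any tumour and 24 had 0 in all. Of the 11 genes of the complex that could be tested 1 passed, S100a9 (edgeR adjusted p = 0.0183). This calcium-binding protein gene was highest in tumour 3, at 31.5 CPM. Of the other 10, Smcp was the 1 gene outside the S100 family, and S100a6 had the largest fold from lowest to highest tumour after S100a8, from 69.3 CPM in tumour 1 to 374 in tumour 4. The late envelope genes Lor (loricrin) and Flg (filaggrin) had at most 9 and 3 counts, and Flg2, Rptn and the 5 listed Lce genes had 0 in every library. An exception was the Sprr2a group. Sprr2a1, Sprr2a2 and Sprr2a3, near-identical copies whose separate counts are uncertain, together had 27, 2, 0 and 1829 counts in tumours 1 to 4. Summed, they had 44.7 CPM in tumour 4 against 0.637 in tumour 1, the next highest.

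Evpl and Ppl encode the plakins that line the membrane when an envelope forms, and they also bind desmosomes and keratin filaments. Ppl (Entrez gene 19041, chromosome 16, 5086291 to 5132481) was well expressed, with 28.3, 74.5, 83.5 and 127 CPM in tumours 1 to 4. Tumour 1 stood lowest, and tumour 4 was 4.50-fold above it (95% exact counting interval 4.22 to 4.79), a spread that did not pass (edgeR adjusted p = 0.362). Tumours 2 and 3 were 1.12-fold apart (1.06 to 1.18). Evpl (Entrez gene 14027, chromosome 11, 116220559 to 116238165) had 1.51, 1.50, 3.14 and 3.57 CPM. Tumours 1 and 2 did not differ beyond counting error, nor did tumours 3 and 4, and the step from tumour 1 to tumour 3 was 2.08-fold (1.52 to 2.86). Evpl did not pass either. Per kilobase of exon Ppl exceeded Evpl in each tumour, with levels of 4.11 CPM against 0.236 in tumour 1 and 18.5 against 0.559 in tumour 4.

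The plakins anchor at desmosomes, and of 14 desmosome genes listed 9 could be tested and 1 passed. This was Dsg3, a cadherin of squamous and basal cells, which took another order of tumours, with 19.5, 11.3, 78.3 and 10.7 CPM (edgeR adjusted p = 0.00432, and 1 without tumour 3). Jup, the plakoglobin gene, had 283 ± 70.5 CPM and Dsp, the desmoplakin gene, 190 ± 100 CPM (SD, n = 4). Cdsn, Dsg1a, Dsc1 and Dsc3, desmosome genes of differentiated or stratified epithelium, had at most 8 counts in any tumour. Dsg1b had 12, 8, 0 and 16 counts in tumours 1 to 4.

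Grhl3 and Klf4 differed between highest and lowest tumour by 2.41-fold and 2.04-fold, and neither passed the spread test. Grhl3, which encodes the grainyhead-like factor that activates Tgm1 in epidermis (Entrez gene 230824, chromosome 4, 135541887 to 135573632), had 3.02, 7.26, 6.51 and 5.93 CPM in tumours 1 to 4. Tumour 1 was low. Among the others tumour 2 exceeded tumour 3 by 1.12-fold (95% exact counting interval 0.932 to 1.33) and tumour 3 exceeded tumour 4 by 1.10-fold (0.915 to 1.31), steps within counting error. Klf4, a zinc finger factor of barrier formation (Entrez gene 16600, chromosome 4, 55527137 to 55532475), had 8.42, 11.2, 14.6 and 7.18 CPM. It was highest in tumour 3, where Tgm1 and Sbsn were lowest, and lowest in tumour 4. Klf4 is also transcribed in endothelium, whose 10 marker genes summed to 228, 166, 222 and 140 CPM in tumours 1 to 4. The part of endothelial cells in the Klf4 level was not tested.

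Of 15 other transcription factor genes of squamous epithelium, all tested, 1 passed. Trp63, which encodes the p63 factor of basal and stratified epithelium, had 2.85, 7.72, 1.91 and 46.6 CPM in tumours 1 to 4 (edgeR adjusted p = 3.81e-05), a call that rests on tumour 4 and was lost without it (edgeR adjusted p = 1). Its order of tumours, 3, 1, 2 and 4 from low to high, is that of Tgm1, whose tumours 2 and 4 were 1.19-fold apart. How many of all genes share this order was not counted here. Grhl2, the family member of simple epithelia, stood at 113 ± 6.57 CPM, and Grhl1 at 102 ± 38.2 CPM (SD, n = 4). Zfp750, which acts between p63 and KLF4 in keratinocytes, had 20.4 ± 6.59 CPM, and Ehf, an epithelial ETS factor gene, had the highest mean of the list at 611 ± 202 CPM (SD, n = 4). None of Grhl1, Grhl2, Zfp750, Klf5, Ovol1 and Ehf passed.

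Over the 7 pathway lists outside the members, 105 genes were named, 104 were in the table, 52 could be tested and 7 passed, 13.5% of those tested against the background of 3.63%. The lists were drawn up with earlier results of these data known. The 7 were Dmkn, Trp63, Dsg3, the keratin gene Krt6a, the lipase cofactor gene Abhd5, the protease inhibitor gene Spint1 and Serpinb5, the maspin gene. Dmkn, Trp63, Krt6a, Abhd5 and Serpinb5 were highest in tumour 4. Serpinb5 had 22.0, 42.3, 14.2 and 116 CPM in tumours 1 to 4 (edgeR adjusted p = 0.00339) and Abhd5 79.2, 151, 64.4 and 399 CPM (edgeR adjusted p = 0.00959). Both took the tumour order of Tgm1, a match not set against the share of all genes with that order. Without tumour 4 neither passed (edgeR adjusted p = 0.928 and 0.930), and Abhd5 was also lost without tumour 1 or 3 (0.0701 and 0.0540). Spint1 was highest in tumour 2, at 110 CPM against 13.4 in tumour 1 (edgeR adjusted p = 0.00232, and 0.543 without tumour 1). Krt6a, a keratin of activated keratinocytes, had 1.11, 2.29, 5.99 and 17.2 CPM (edgeR adjusted p = 0.0455), a call lost without tumour 1, 2 or 4 (0.405, 0.129 and 0.807). Without tumour 4, 3 of the 52 genes then tested passed, Dsg3, Spint1 and Dmkn, and without tumour 1 4 of 53 did. Asprv1, which encodes the protease that processes filaggrin, had 13.6, 31.7, 6.59 and 41.0 CPM in the order of Tgm1 but did not pass (edgeR adjusted p = 0.156). The genes of highest mean did not pass in 3 further lists. These were Krt17 among the squamous keratins, at 22.3 ± 17.2 CPM, Anxa1, a transglutaminase substrate, among the other envelope precursors, at 565 ± 189 CPM, and St14, the matriptase gene, among the proteases and inhibitors, at 283 ± 117 CPM (SD, n = 4).

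Genes counted mainly in 1 tumour are left out by a count minimum asked of all 4 libraries, and several of the listed epidermal genes were of this kind. They are described here without a test, since any filter that keeps them does so through the tumour where they are high, and they were picked after their values were seen. Kallikreins are secreted serine proteases, some of which act in the shedding of corneocytes, and Spink5 encodes an inhibitor of some of them. Klk10 had 0.472, 1.59, 0.209 and 737 CPM in tumours 1 to 4, and Klk6 0.778, 2.31, 0.105 and 107 CPM. Klk11 had 0, 10, 0 and 2104 counts. Klk13 had 418 counts in tumour 4 and 0 in the others, at least 118-fold higher than the 3 counts that each library at 0 allows. Spink5 had 638 counts in tumour 4 against at most 2. Unlike Tgm1 and Sbsn, whose levels in tumours 2 and 4 were within 1.53-fold, these 4 kallikreins and Spink5 stood high in tumour 4 alone. Klk7 had 33, 4, 0 and 49 counts in tumours 1 to 4, and Klk14 had 1, 21, 0 and 73. Klk5 and Klk12 had at most 2 counts and Klk9 had 0, so not every kallikrein gene was detected. Klk8, the 1 kallikrein gene that could be tested, did not pass (edgeR adjusted p = 0.402).

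**Figure D4:**
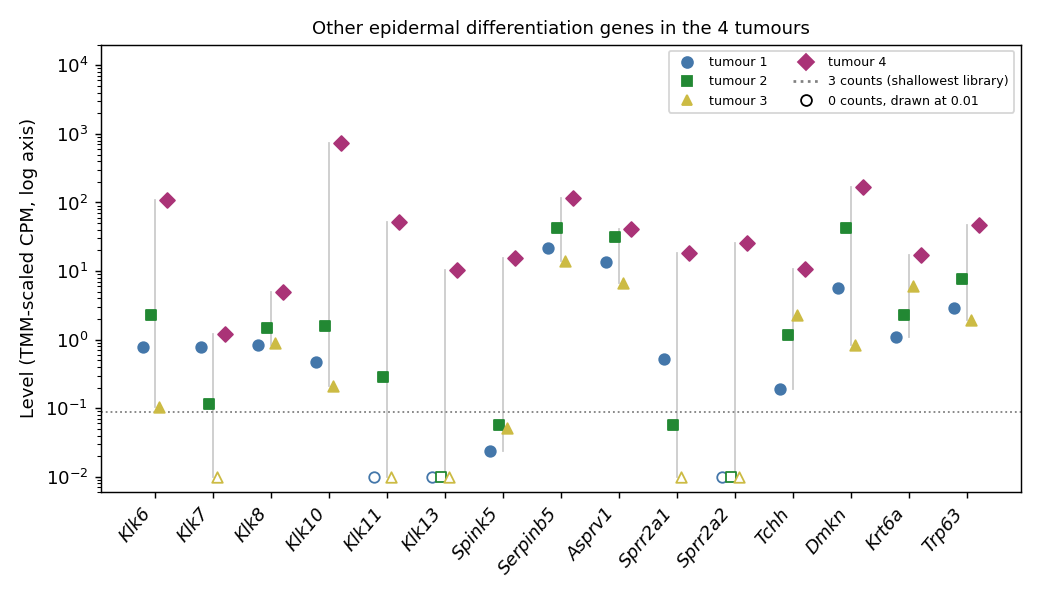
Level in TMM-scaled CPM (log axis) of 15 other epidermal differentiation genes, 1 marker per tumour and open markers for 0 counts. Tumour 4 is the highest in all 15, which were picked after their values were seen, and Klk10 reaches 737 CPM there against at most 1.59 in the others.

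Markers of skin, which lies next to the gland, were read in the same libraries. The 12 suprabasal epidermis markers, all in the table, summed to 22.9, 37.1, 12.0 and 47.3 CPM in tumours 1 to 4, and none of the 3 that could be tested passed. Asprv1, Calml3 and Krt10 made up most of these sums, and 6 of the 12 had at most 3 counts in each library. Several of the 12 were at or near 0. Krt1 had at most 2 counts, Lor at most 9, Flg at most 3 and Hrnr at most 1, and Flg2 and Calm4 had 0 in all 4 libraries. Casp14 had 26 counts in tumour 4 and 0 in tumours 1 to 3. Krt10 had 0.855 CPM in tumour 4, its lowest, and 3.11 in tumour 3. The 14 hair follicle and sebaceous gland markers summed to 6.86 to 8.13 CPM in tumours 1 to 3 and 18.7 in tumour 4, of which Tchh gave 10.6, and Krt28 and Krt73 were at 0 in all.

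Some basal epithelial markers were high in tumour 4, and others were not. The 10 basal and myoepithelial markers, all tested, summed to 977 to 1054 CPM in tumours 1 to 3 and 1389 in tumour 4, of which Itga6 gave 979. The 4 that passed were Krt5, Krt14, Trp63 and Oxtr, of 10 tested against 3.63% of all genes, and each was highest in tumour 4. The smooth muscle actin gene Acta2 was lowest in tumour 4, at 63.2 CPM against 73.0 to 112, and Tagln, Mylk and Cnn1, with 38.3, 26.2 and 1.78 CPM in tumour 4, were highest in other tumours. Without tumour 4, Krt5, Trp63 and Oxtr no longer passed (edgeR adjusted p = 0.664, 1 and 1). Krt5 had 1.58, 4.08, 0.680 and 87.3 CPM in tumours 1 to 4, so tumour 2 lay above tumours 1 and 3 but far below tumour 4. Krt14 took another order, with 1.89, 8.65, 28.4 and 89.9 CPM, so tumour 3 lay above tumour 2. It still passed without tumour 4 (edgeR adjusted p = 0.0119). In tumours 2 and 4 Tgm1 had 69.8 and 83.0 and Sbsn 53.5 and 35.0. The 12 luminal markers summed to 3038, 4645, 3977 and 5087 CPM in tumours 1 to 4, and of 11 tested 1 passed, the keratin gene Krt19, with 11.6, 147, 40.9 and 371 CPM (edgeR adjusted p = 1.96e-08). The 10 macrophage markers summed to 696, 1132, 788 and 1024 CPM, so tumours 2 and 4 were the higher ones here too, although no macrophage marker passed. The part of these cell types in the levels of Tgm1 and Sbsn was not tested.

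The genes nearest in pattern to Tgm1 and Sbsn were sought over the 4 tumours, by the root mean square difference of log2 CPM after each gene's mean was taken off. The nearest of 15808 genes must lie well below the median, so their distances are no test of a link. Nearest to Tgm1 were Ifi205 (0.166), Chdh (0.169), Atp12a (0.184), Ceacam10 (0.216) and Vdr (0.253), while the median over genes tested was 1.29. Of these Chdh, a choline dehydrogenase gene, and Vdr, the vitamin D receptor gene, passed the spread test (edgeR adjusted p = 0.0162 and 0.00929). Chdh lost its call without tumour 1, 2 or 3 (0.119, 0.0862 and 0.133) and Vdr without tumour 3 (0.294). Vdr had 86.4, 224, 46.9 and 335 CPM in tumours 1 to 4. Among the genes nearest to Sbsn were Saa1 (0.552), Lalba (0.673), Igfals (0.713) and H2-Q5 (0.749), against a median of 2.72. These 4 passed, which genes picked for nearness to a gene of so wide a spread are likely to do. Saa1, an acute phase protein gene, had 6.06, 39.1, 0.81 and 66.0 CPM in tumours 1 to 4. Without tumour 3, Lalba, the alpha-lactalbumin gene, did not pass (edgeR adjusted p = 0.541). By the same measure Tgm1 and Sbsn were 1.58 apart, which is more than the median gene was from Tgm1 and less than the median gene was from Sbsn. Ppl, Grhl3, Evpl and Klf4 were 1.07, 1.14, 1.36 and 1.50 from Tgm1, so Ppl and Grhl3 were nearer to it than the median gene and Evpl and Klf4 were not.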

How the data were processed

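Poly-A RNA of 4 tumours of 1 group was sequenced as paired reads, per the labels' protocols. The deposited table holds raw counts for each Entrez gene, as the authors made it. Its 4 columns were matched to tumours by the number in their name. The submitters' processing notes name FastQC and the builds GRCm38 and mm10. The aligner, the counter and whether strand was used were not given in the sources used here. RefSeq (GRCm38.p6) gave symbols to 24480 of the 28440 genes, and library sizes include the rest.

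The test used edgeR (version 4.0.16, under R 4.3.3). Its filterByExpr kept genes with about 10 counts per library in all 4 and 15 in total, and libraries were scaled by TMM. With 1 group no contrast exists. Each gene's deviance from an intercept-only fit at the trended dispersion was compared with chi-square and adjusted by Benjamini-Hochberg. The script was tested on simulated data. Log2 CPM used a prior count of 2. Exon lengths are unions of GENCODE vM21 exons, per the reference given, and counting intervals are exact at 95%. DESeq2 1.42.0, other scalings and filters, and leaving out each tumour were alternatives.

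The members and lists were chosen with earlier results of these data known. Genes are named by rule: all members, list genes past the test, the highest mean of each list, fixed markers, and the 5 nearest patterns to each member past the test. Others were named after their values were seen, and 1 gene that the rule names is not reported here.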

Additional observations from a re-analysis of the deposited data

Results flagged for a closer look

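Among 59 named genes with over 3 counts in some tumour, examined for 1 tumour standing apart from the other 3 on the log2 CPM scale, 5 passed Dixon's limit at 95% for the gap to the nearest tumour as a share of the whole range, each of them in tumour 4. They were Klk13 (1.0 of the range, 10.2 CPM against 0), Sprr2a2 (1.0, 25.5 CPM against 0), Crct1 (1.0, 1.25 CPM against 0), Casp14 (1.0, 0.635 CPM against 0) and Spink5 (0.929, 15.6 CPM against 0.0579). For the first 4 the other tumours are tied at 0 counts, so the share is 1.0 whatever the level in tumour 4, and only the levels are informative. No member with over 3 counts in some tumour passed this limit. Chance marks about 1 in 20 groups without such ties, and these 5 were named after their values were seen. All 5 had over 3 counts in tumour 4 alone, so they were examined only through the tumour that was marked. For them the limit is a description and not a test.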

How the results depend on the processing

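The number of genes past the spread test was 574, and 895 with no filter beyond 1 count, 945 with the count minimum in 1 library only, and 91 by DESeq2's dispersion outliers. Leaving out 1 tumour gave 372 (without tumour 4) to 417. The members past the test were 2 under each edgeR setting and 1 (Sbsn) by DESeq2, and 2 with any tumour left out (2 to 2). Of 51 named genes 20 passed, a share that cannot be set against the 3.63% of all genes, since list genes were named because they passed. Of the 20, 15 were not DESeq2 outliers and 4, 2, 6 and 6 lost the call without tumour 1, 2, 3 or 4. Under RLE size factors and library size alone 0 of the 20 calls were lost, other filters lost Krt6a, a common dispersion lost Abhd5, Chdh and Vdr and gained Ceacam10, and the tumour in which each member was highest did not change. Of 80 recomputed log2 differences of the members 11 moved by more than 1 SD, mostly for Ivl, Sprr1b and Krtdap, whose values rest on the prior count, and without tumour 1 those of Ppl and Grhl3 fell to 0.77 and 0.29. Depth limits the scarce genes: 3 counts are 0.0708 to 0.0868 CPM. No paired analysis was possible because there is 1 group of samples.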
